A study of Mus musculus with 12 samples.

Results

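The cauda epididymidis of Dicer1 cKO mice was compared with the corpus epididymidis of the same genotype. The members are the arrays titled as cauda or corpus of the knockout, 6 of the 12 arrays of the series, with 3 for each segment. Every gene entered the comparison through the probe-set that carries its symbol alone and has the highest mean over the 12 arrays, which gave 22180 genes. Dicer1 cKO mice carry Defb41-iCre on Dicer1fl/fl (Defb41iCre/wt;Dicer1fl/fl), and the control mice, used here only for reference, are Dicer1fl/fl without Cre, so that all 4 groups carry floxed Dicer1 alleles. All mice had a mixed C57Bl/6N and SV129 background, and their age and any treatment are not given in the sources used here. The Defb41 promoter drives Cre in the principal cells upstream, those of initial segment and caput, and does so before puberty. Both segments compared here therefore lie downstream of the cells in which the deletion takes place, and their own Dicer1 signal checks no label. Both epididymides of a mouse were combined per segment. The study's methods give 3 mice of each genotype as the source of all segments. Cauda and corpus arrays of a genotype thus share animals and do not stand for 6 separate mice. No source used here says which cauda and corpus arrays come from 1 animal, and the main fit treated all 12 arrays as independent. The p-values thus measure the spread between these samples without pairing by animal.

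The epididymis is a single coiled duct in which sperm leaving the testis become able to swim and fertilize. Its epithelium secretes a different mixture of proteins in each segment, and the luminal fluid is acidified and concentrated along the way. The cauda, the last segment, stores sperm and has a thick coat of smooth muscle that contracts when nerves release noradrenaline, acetylcholine and ATP, whereas the corpus in front of it has a thinner coat.

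Array medians lay between 5.19 and 5.31 on the log2 scale, and the median of all values was 5.23. Arrays of 1 segment correlated at 0.970 to 0.985 over all probe-sets and arrays of different segments at 0.963 to 0.974. As a check of the labelled tissue, Lcn12, a lipocalin of the epididymal epithelium, was bright in both segments, with log2 intensities of 12.75, 12.75 and 12.74 in cKO cauda, against 11.25, 11.49 and 11.34 in cKO corpus. Dicer1 had 7.76, 7.77 and 7.71 in cKO cauda, against 7.41, 7.61 and 7.59 in cKO corpus (difference 0.21, SE 0.12, adjusted p = 0.536, from limma). The corpus arrays of cKO mice were not alike. In a principal component analysis of the 6 arrays, the first component (37.2% of the variance) placed cauda arrays at -54.1 to -28.7 and corpus replicates 1 and 2 at 59.1 and 51.7, with corpus replicate 3 between them at 9.80. On the second (22.6%), corpus replicate 3 lay at -75.7 and the other 5 arrays between 9.72 and 21.3. Over all 12 arrays it was corpus cKO replicates 1 and 2 that stood apart, at 58.8 and 53.7 on the second component, against -36.6 for corpus cKO replicate 3 and -35.0 to 9.99 for the other 9. For results that rest most on corpus cKO replicate 3, values are given without it and with it as the only corpus cKO array.

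Between the segments of Dicer1 cKO mice 943 genes differed, 561 of them with higher and 382 with lower signal in the cauda. The threshold was an adjusted p of 0.05 in limma, a linear model that shares the variance estimate between probe-sets. Of all genes tested, 2.53% were called higher and 1.72% lower, 4.25% in all. These shares are the reference for the counts of lists and families below. A count near them is not read as a result about the list. Over all 41345 probe-sets, with or without a gene name, 676 were higher (1.64%) and 435 lower (1.05%), 2.69% in all. Among the genes called, 331 of those higher and 225 of those lower differed by more than 2-fold, and 83 and 46 by more than 4-fold. The cauda and corpus arrays did not overlap for any of the 943 genes, while over all genes 11.2% had all cauda arrays above and 11.2% all cauda arrays below the corpus arrays. The median difference over all genes was -0.01, close to 0. Leaving out 1 array at a time, 284 of the 561 and 152 of the 382 kept their call in all 12 fits. Without corpus cKO replicate 3 the counts were 774 higher and 598 lower, and with that array as the only corpus cKO array they were 243 and 277. In the lowest single fits, 331 were higher without cauda cKO replicate 3 and 186 lower without cauda cKO replicate 2.

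**Figure D1:**
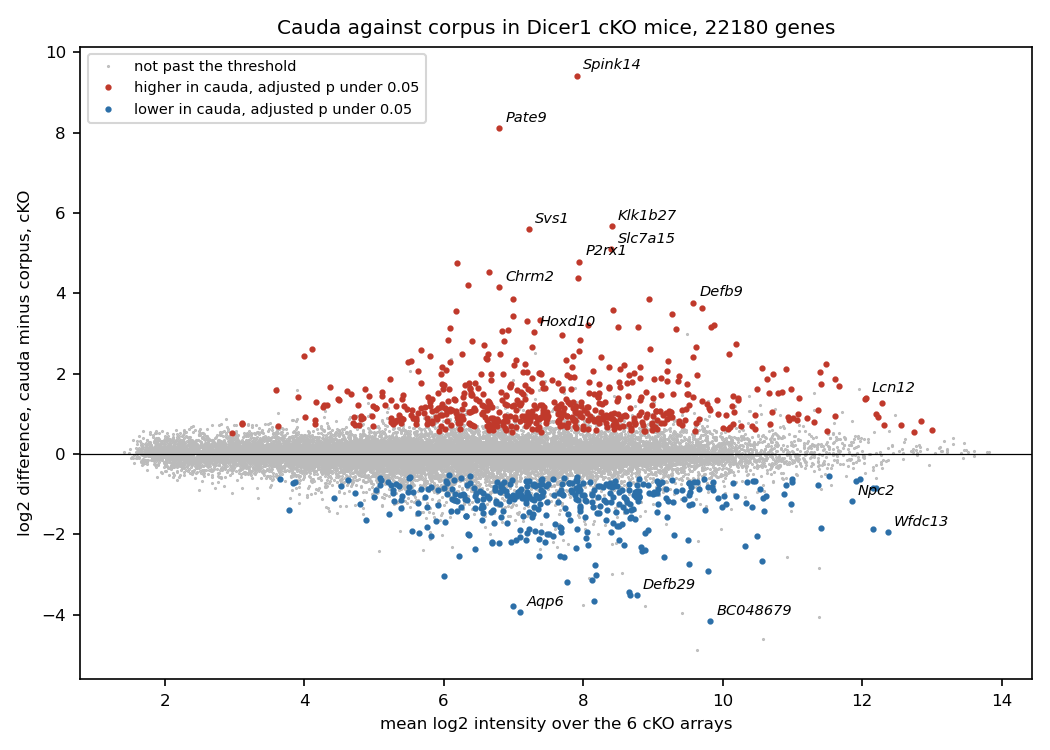
Difference between cauda and corpus of Dicer1 cKO mice (log2, y axis) against the mean log2 intensity over the 6 cKO arrays (x axis), 1 point per gene. Of 22180 genes, 561 were higher (red) and 382 lower (blue) in the cauda at an adjusted p under 0.05, with Spink14 at 9.42 and BC048679 at -4.16 as the extremes among the genes called.

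A secreted protease inhibitor, a protease and a small cysteine-rich protein were among the genes that stood highest in the cauda, beside genes of other kinds described below. Spink14, a Kazal-type serine protease inhibitor, had log2 intensities of 12.69, 12.62 and 12.54 in cKO cauda, against 3.13, 2.79 and 3.68 in cKO corpus (difference 9.42, SE 0.59, adjusted p = 2.8e-05). It was near the top of the scale on every cauda array and far below the median of all values on every corpus array. Pate9, of a family of small cysteine-rich proteins of the male tract, had 10.87, 11.17 and 10.55 in cKO cauda, against 2.69, 3.06 and 2.48 in cKO corpus (difference 8.12, SE 0.65, adjusted p = 8.07e-05). Svs1, a seminal vesicle secretory protein, had 9.60, 10.36 and 10.11 in cKO cauda, against 4.25, 4.17 and 4.83 in cKO corpus (difference 5.61, SE 0.69, adjusted p = 0.00123). For these 3 genes the corpus values lay below the median of all values, where background limits the size of a difference, so their order is not read from it. Klk1b27, a tissue kallikrein that cleaves secreted proteins, had 10.92, 11.20 and 11.62 in cKO cauda, against 6.74, 4.75 and 5.24 in cKO corpus (difference 5.66, SE 0.45, adjusted p = 8.39e-05). Its corpus values were spread over more than the cauda values, yet the highest of them stayed well below the lowest cauda array. In control mice the same genes were higher in the cauda as well, Spink14 by 7.38, Pate9 by 5.61, Svs1 by 3.84 and Klk1b27 by 4.48 on the log2 scale.

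Beta-defensins held members of opposite direction. Of 42 beta-defensins, small antimicrobial peptides many of which coat epididymal sperm, 6 were higher and 5 lower in the cauda, with a median difference of -0.23. Defb9 had 11.39, 11.47 and 11.52 in cKO cauda, against 7.65, 7.19 and 8.24 in cKO corpus (difference 3.77, SE 0.29, adjusted p = 7.22e-05), and Defb2 had 12.73, 12.57 and 12.48 in cKO cauda, against 10.34, 10.60 and 10.16 in cKO corpus (difference 2.23, SE 0.20, adjusted p = 0.000172). Both were high on all 3 cauda arrays with no overlap. In the other direction, Defb39 had 10.37, 10.54 and 10.18 in cKO cauda, against 11.98, 11.42 and 11.41 in cKO corpus (difference -1.24, SE 0.21, adjusted p = 0.00907), and Defb42 had 10.12, 9.62 and 7.98 in cKO cauda, against 11.85, 12.17 and 11.66 in cKO corpus (difference -2.66, SE 0.48, adjusted p = 0.0119). Defb42 was lowest on cauda replicate 3, and its call was lost without corpus cKO replicate 2 (difference -2.52, adjusted p = 0.0524). Of the 11 calls in the family, 4 held in all 12 fits that left out 1 array. The count of higher beta-defensins was 3 without cauda cKO replicate 2, and that of lower ones was 3 without cauda cKO replicate 1 or 2 or corpus cKO replicate 1, 2 without cauda cKO replicate 3, 1 without corpus cKO replicate 2, but 8 once corpus cKO replicate 3 was left out. Defb29 (-3.52) and Defb26 (-2.75) were also lower. The call of Defb29 held only without corpus cKO replicate 3 (difference -4.50, adjusted p = 0.00463) and was lost in the 11 other fits (adjusted p 0.0525 to 0.189). That of Defb26 was lost without any 1 of the cauda cKO arrays, corpus cKO replicate 2 or corpus cKO replicate 3 (differences -2.91 to -2.27, adjusted p 0.0554 to 0.113). Both had wide corpus groups: Defb29 had 8.11, 7.35 and 5.58 in cKO cauda, against 11.15, 11.88 and 8.56 in cKO corpus, with cauda replicate 3 and corpus replicate 3 each well below the rest of its group, and Defb26 had 8.39, 8.48 and 7.58 in cKO cauda, against 9.51, 11.34 and 11.84 in cKO corpus, with corpus replicate 1 the lowest of its group.

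Of 12 Pate genes 1 was higher and 1 lower (Pate2, difference -1.94, SE 0.41, adjusted p = 0.0297), and the call of Pate2 was lost without cauda cKO replicate 1 or 3 or any 1 of the corpus cKO arrays (differences -2.10 to -1.56, adjusted p 0.0593 to 0.121). Of 12 Spink inhibitors 2 were higher and none lower at this threshold. Spink10 had 12.26, 12.57 and 12.41 in cKO cauda, against 9.92, 10.61 and 10.61 in cKO corpus (difference 2.03, SE 0.24, adjusted p = 0.00103). Of 27 Kunitz and whey acidic protein (WAP) inhibitors, another group of secreted protease inhibitors, 4 were higher and 1 lower, and 2 were higher without any 1 of the cauda cKO arrays. Wfdc6b stood at 11.59, 11.65 and 11.69 in cKO cauda, against 9.67, 9.66 and 9.15 in cKO corpus (difference 2.15, SE 0.19, adjusted p = 0.000162), and Wfdc13 at 11.42, 11.47 and 11.29 in cKO cauda, against 13.19, 13.37 and 13.47 in cKO corpus (difference -1.95, SE 0.26, adjusted p = 0.00183). These genes of 1 family thus differed in opposite directions, each without overlap between segments. Of 24 kallikreins 5 were higher and none lower, among them Klk1b1 (2.61) and Klk1b21 (1.61) beside Klk1b27. The other calls were those of Klk1b24 (difference 1.75, SE 0.41, adjusted p = 0.0498) and Klk1b11 (difference 1.20, SE 0.28, adjusted p = 0.0434). Klk1b24 kept its call only without corpus cKO replicate 3 and lost it in the other fits (differences 1.33 to 1.95, adjusted p 0.0515 to 0.183), and Klk1b11 only without corpus cKO replicate 3 or corpus control replicate 2 or 3 with the call lost in the others (differences 0.94 to 1.35, adjusted p 0.0594 to 0.169), so that the count was 3 without any 1 of the other cKO arrays, any 1 of the cauda control arrays or corpus control replicate 1. The Klk1b genes are close copies of one another, and how far probes of 1 detect another was not tested. Of 18 lipocalins 2 were higher, Lcn12 (difference 1.39, SE 0.15, adjusted p = 0.000616) and Apod (difference 1.50, SE 0.21, adjusted p = 0.00305), a carrier of lipids. Of 24 cystatins, which inhibit cysteine proteases, and 5 Crisp genes, which encode cysteine-rich secretory proteins of sperm, none passed the threshold in either direction, with medians of -0.08 and -0.40.

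**Figure D2:**
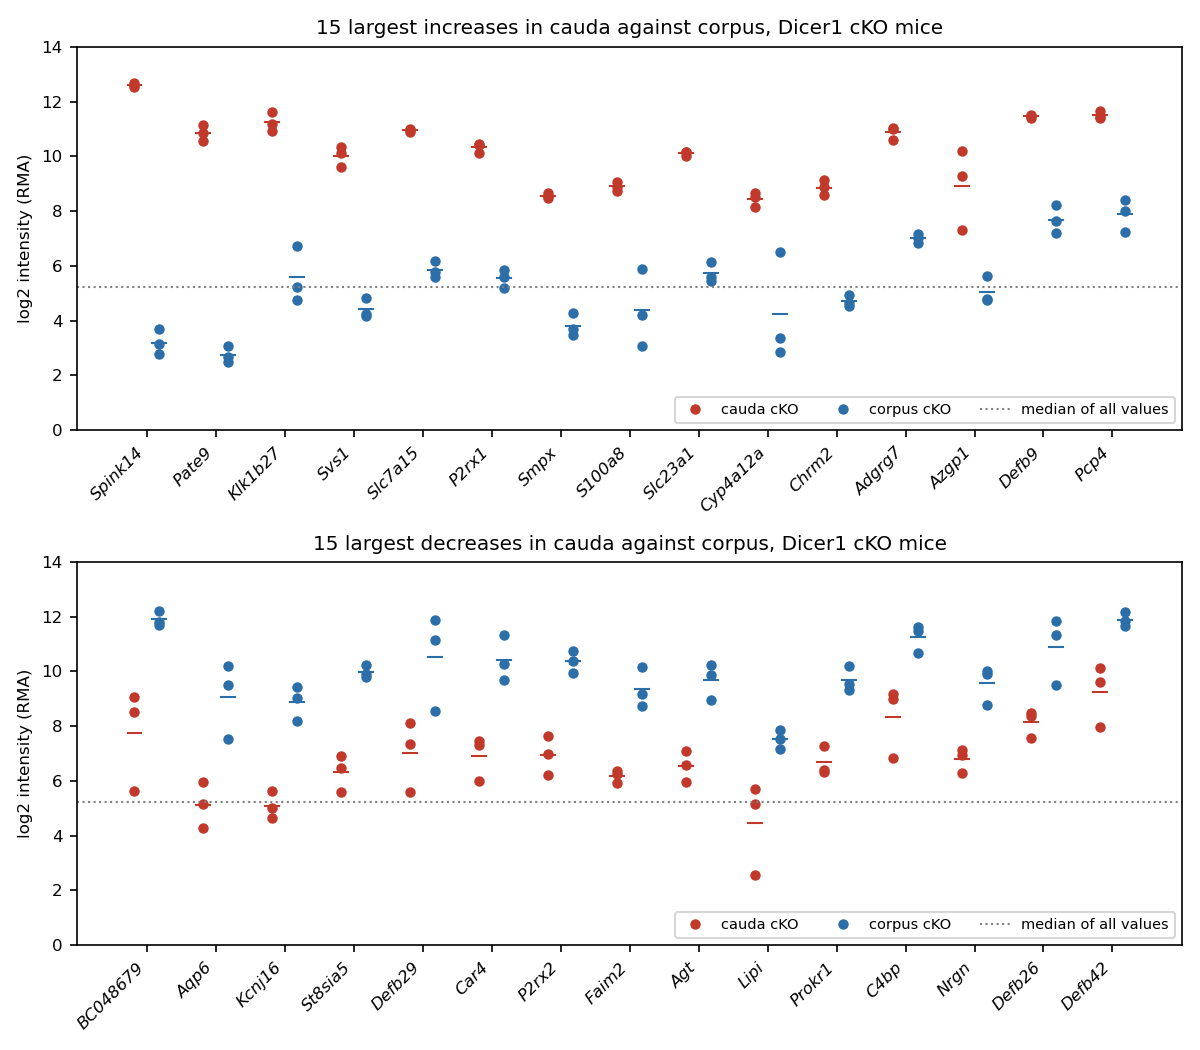
Log2 intensity (y axis) on each cauda (red, left) and corpus (blue, right) array of Dicer1 cKO mice for the 15 largest increases and the 15 largest decreases, with a bar at the mean of 3 arrays and a dotted line at the median of all values. Azgp1 spans 7.31 to 10.20 on cauda arrays and Cyp4a12a spans 2.87 to 6.52 on corpus arrays, whereas Spink14 spans 12.54 to 12.69 on cauda arrays.

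Among the genes with higher signal in the cauda were also transporters and enzymes. Slc7a15, of a family of amino acid transporters, had 10.89, 10.99 and 10.98 in cKO cauda, against 6.20, 5.60 and 5.78 in cKO corpus (difference 5.09, SE 0.52, adjusted p = 0.000406). Slc23a1, which carries vitamin C together with sodium, had 10.02, 10.17 and 10.15 in cKO cauda, against 5.60, 5.46 and 6.16 in cKO corpus (difference 4.38, SE 0.29, adjusted p = 3.25e-05). Chst8, a sulfotransferase that modifies the sugars of glycoproteins, had 8.95, 9.08 and 9.13 in cKO cauda, against 5.68, 5.62 and 5.86 in cKO corpus (difference 3.33, SE 0.18, adjusted p = 1.6e-05). In all 3 the replicates of each segment lay close together and the segments lay far apart. Slc27a2, which activates very long-chain fatty acids for metabolism, had 10.10, 9.95 and 10.17 in cKO cauda, against 6.80, 7.36 and 6.61 in cKO corpus (difference 3.15, SE 0.22, adjusted p = 4.33e-05), while a second and dimmer probe-set of the gene gave 0.70 (adjusted p = 0.104). Adgrg7, an adhesion G protein-coupled receptor, differed by 3.87, and Pcp4, which regulates calmodulin, by 3.63. Smpx, a gene with no role given here, differed by 4.75. Cyp4a12a, a cytochrome P450 that hydroxylates fatty acids, had 8.54, 8.67 and 8.16 in cKO cauda, against 2.87, 3.37 and 6.52 in cKO corpus (difference 4.20, SE 0.78, adjusted p = 0.0139). Corpus replicate 3 stood far above the other 2 corpus arrays for it, and the call was lost without cauda cKO replicate 1 or 2 or corpus cKO replicate 1 or 2 (differences 3.51 to 4.16, adjusted p 0.0525 to 0.062). The difference was 5.34 without corpus cKO replicate 3 (adjusted p = 0.000213) and 1.94 with it as the only corpus cKO array (adjusted p = 0.185). Of the 15 largest increases, Cyp4a12a was the only 1 whose call did not hold in all 12 fits. Its corpus mean lay below the median of all values, so the size of its difference is limited by background. The 5 increases with the smallest p were Gm16063, a predicted gene (difference 3.56, SE 0.17, adjusted p = 8.41e-06), Stmnd1, which holds a stathmin domain (difference 3.14, SE 0.16, adjusted p = 8.41e-06), Chrm2, Chst8 and Hoxd10.

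Over the whole family, 21 of 319 solute carriers were higher and 12 lower, with a median of -0.02. Slc2a12, a glucose transporter, had 7.19, 7.17 and 7.21 in cKO cauda, against 5.62, 5.51 and 5.56 in cKO corpus (difference 1.63, SE 0.13, adjusted p = 8.51e-05). Slc28a3, which takes up nucleosides, differed by 1.57, and Slc6a6, the taurine transporter, by 1.19. Lower in the cauda were Slc40a1, the iron exporter ferroportin, at 7.05, 6.06 and 6.34 in cKO cauda, against 8.35, 8.18 and 8.94 in cKO corpus (difference -2.00, SE 0.31, adjusted p = 0.00493), Slc4a11 (-2.00), of the bicarbonate transporter family, and Slc34a2 (-2.34), a phosphate transporter. For each of these 6 genes the segments did not overlap. The count of lower solute carriers was 5 without any 1 of the cauda cKO arrays and 7 without corpus cKO replicate 2.

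Genes of the duct's muscle coat were higher in the cauda. Of 23 smooth muscle contractile genes 16 were higher and none lower, and all 23 had a positive difference (median 1.29, lowest 0.28, highest 2.41). In controls 17 were higher, with a median of 1.65. Myh11, the smooth muscle myosin heavy chain, had 12.19, 12.26 and 12.39 in cKO cauda, against 10.46, 10.91 and 10.22 in cKO corpus (difference 1.75, SE 0.20, adjusted p = 0.000799). Cnn1, the actin-binding protein calponin, had 12.38, 12.43 and 12.70 in cKO cauda, against 10.63, 11.36 and 10.49 in cKO corpus (difference 1.68, SE 0.23, adjusted p = 0.00217), and Synpo2, a protein of actin bundles, had 9.36, 9.39 and 9.62 in cKO cauda, against 7.15, 7.08 and 6.91 in cKO corpus (difference 2.41, SE 0.21, adjusted p = 0.000123). Corpus replicate 2 was the highest corpus array for Myh11 and Cnn1, but no corpus array reached a cauda array. Acta2, smooth muscle actin, had 13.12, 13.29 and 13.48 in cKO cauda, against 12.58, 12.86 and 12.65 in cKO corpus (difference 0.60, SE 0.13, adjusted p = 0.0322), and its call was lost without cauda cKO replicate 2 or 3, corpus cKO replicate 1 or 3, cauda control replicate 1 or any 1 of the corpus control arrays (differences 0.51 to 0.60, adjusted p 0.051 to 0.143). Of the 16 calls 10 held in all 12 fits, and the count of calls lay between 10 (without cauda cKO replicate 2) and 17. The list averaged 10.19, 10.41 and 10.49 on cKO cauda arrays and 9.01, 9.41 and 8.94 on cKO corpus arrays. In bulk tissue, fewer muscle cells and less RNA per muscle cell cannot be told apart.

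Receptors and channels that set the duct's contraction went the same way for 8 of 20 genes, with none lower (median 0.49). P2rx1, the ATP-gated channel of smooth muscle, had 10.12, 10.43 and 10.46 in cKO cauda, against 5.58, 5.21 and 5.87 in cKO corpus (difference 4.79, SE 0.29, adjusted p = 2.61e-05). Chrm2, the M2 muscarinic receptor for acetylcholine, had 8.88, 9.14 and 8.58 in cKO cauda, against 4.94, 4.65 and 4.55 in cKO corpus (difference 4.15, SE 0.23, adjusted p = 1.6e-05). Ano1, a calcium-activated chloride channel, had 11.53, 11.52 and 11.63 in cKO cauda, against 10.22, 10.15 and 9.74 in cKO corpus (difference 1.52, SE 0.16, adjusted p = 0.000523), and Cacna1c, the pore of the L-type calcium channel, had 7.38, 7.41 and 7.99 in cKO cauda, against 6.21, 5.93 and 6.02 in cKO corpus (difference 1.54, SE 0.18, adjusted p = 0.00107). These 4 genes showed no overlap and little spread within a segment. The corpus mean of Chrm2 lay below the median of all values, so the size of its difference is limited by background. Chrm3, the M3 muscarinic receptor, had 7.60, 7.73 and 7.70 in cKO cauda, against 5.10, 5.03 and 6.91 in cKO corpus (difference 2.00, SE 0.39, adjusted p = 0.018). On corpus replicate 3 it was nearly as high as on cauda arrays, and its call was lost without any 1 of the cauda cKO arrays or corpus cKO replicate 1 or 2 (differences 1.67 to 2.04, adjusted p 0.0578 to 0.0756). The difference was 2.61 without corpus cKO replicate 3 (adjusted p = 4.36e-05) and 0.77 with it as the only corpus cKO array (adjusted p = 0.0981). P2rx2, another ATP-gated channel, was not among the 20 genes of that list. It went the other way at 7.66, 6.97 and 6.22 in cKO cauda, against 10.40, 10.76 and 9.96 in cKO corpus (difference -3.43, SE 0.35, adjusted p = 0.000366). That none was lower therefore holds for the listed genes only. Of 12 nerve and glia markers 1 was higher, Th, the enzyme that makes the precursor of noradrenaline (difference 1.03, SE 0.20, adjusted p = 0.0192). Its call was lost without cauda cKO replicate 2 or 3 or corpus cKO replicate 1 or 2 (differences 0.91 to 0.99, adjusted p 0.0799 to 0.0889).

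The promoter of Myl9, the regulatory light chain of smooth muscle myosin, is shown because Myl9 was higher in the cauda at 12.57, 12.75 and 12.80 in cKO cauda, against 11.39, 11.90 and 11.81 in cKO corpus (difference 1.01, SE 0.14, adjusted p = 0.00303) and it was the 1 called gene of the contractile list whose window held a CArG box, the motif bound by serum response factor. The window (RefSeq, GRCm38.p6, chr2:156775214-156775513, plus strand) covers 250 bases before and 50 after the annotated start, with the motif in capitals, its first base 161 bases before the start.
Myl9: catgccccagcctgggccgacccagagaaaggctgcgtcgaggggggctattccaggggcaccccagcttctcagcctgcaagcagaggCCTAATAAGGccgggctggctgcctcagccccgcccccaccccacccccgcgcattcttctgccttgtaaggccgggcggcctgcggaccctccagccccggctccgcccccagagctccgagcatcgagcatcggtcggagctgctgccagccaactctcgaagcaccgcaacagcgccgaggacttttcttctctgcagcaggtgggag
Searched on both strands, the CArG box was found in 1 of 14 contractile genes called and present in the promoter table, and in 1.81% of all 27025 genes there. The match is a description of the letters in this window and not a measured binding site.

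Positional and identity genes differed between the segments in both directions. Of 20 posterior Hox genes, which pattern the trunk and the reproductive ducts in the embryo, 5 were higher and 2 lower (median 0.13). Hoxd10 had 8.74, 8.74 and 8.94 in cKO cauda, against 5.85, 5.75 and 5.72 in cKO corpus (difference 3.03, SE 0.18, adjusted p = 2.47e-05), Hoxa10 differed by 2.49, Hoxd11 by 2.44, Hoxd13 by 1.19 and Hoxb9 by 1.06. Hoxb9 was the only 1 of the 7 whose call did not hold in all 12 fits, and it was lost without any 1 of the cauda cKO arrays or corpus cKO replicate 1 (differences 1.03 to 1.12, adjusted p 0.0593 to 0.101). Hoxc8 had 6.64, 6.51 and 5.72 in cKO cauda, against 8.04, 8.22 and 8.20 in cKO corpus (difference -1.87, SE 0.29, adjusted p = 0.00531), and Hoxc9 had 6.02, 5.78 and 6.20 in cKO cauda, against 7.14, 6.99 and 7.24 in cKO corpus (difference -1.13, SE 0.13, adjusted p = 0.000964). The called members of the HoxA, HoxB and HoxD clusters were thus high in the cauda and the 2 called HoxC members in the corpus. The control differences were alike in sign, with 2.42 for Hoxd10, 2.20 for Hoxa10, -1.52 for Hoxc8 and -1.03 for Hoxc9.

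Of 39 transcription factors of epithelial and mesenchymal identity, 6 were higher and 1 lower, and the count of higher genes was 3 without cauda cKO replicate 1 or corpus cKO replicate 1 or 2, and 2 without cauda cKO replicate 2 or 3. Gata2, a zinc finger factor of the urogenital tract, had 9.63, 9.75 and 9.89 in cKO cauda, against 7.98, 7.49 and 8.12 in cKO corpus (difference 1.89, SE 0.18, adjusted p = 0.000208), and Meis2, a partner of Hox proteins, had 9.33, 9.38 and 9.35 in cKO cauda, against 7.84, 7.46 and 7.80 in cKO corpus (difference 1.66, SE 0.21, adjusted p = 0.00133). Elf3, an epithelial ETS factor, had 9.00, 8.73 and 8.95 in cKO cauda, against 9.71, 10.23 and 10.06 in cKO corpus (difference -1.11, SE 0.16, adjusted p = 0.00392) and was the 1 member lower in the cauda. Of 51 genes of segment signalling, 11 were higher and none lower (median 0.19), and they belonged mostly to the Wnt and BMP pathways. Rspo3, which strengthens Wnt signals, had 9.79, 10.07 and 9.81 in cKO cauda, against 7.86, 7.18 and 8.15 in cKO corpus (difference 2.16, SE 0.25, adjusted p = 0.000964). Rspo2, its relative, differed by 1.98, Wif1, a secreted Wnt inhibitor, by 1.98, Bmp2 by 1.36 and Bmp7 by 1.74. Secreted activators and a secreted inhibitor of the Wnt pathway were therefore both higher on all 3 cauda arrays. Of the 11 calls 8 held in all 12 fits.

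Genes of luminal acidification and fluid transport were divided. Of 30, 5 were higher and 4 lower in the cauda, with a median of 0.02. The count of higher genes was 3 without cauda cKO replicate 1 or corpus control replicate 2, and 2 without any 1 of cauda cKO replicates 2 and 3 and corpus cKO replicates 1 and 2. Slc26a7, an anion exchanger, had 7.89, 7.84 and 7.64 in cKO cauda, against 5.63, 5.37 and 5.25 in cKO corpus (difference 2.38, SE 0.15, adjusted p = 3.25e-05), and Slc26a3, which exchanges chloride for bicarbonate, had 8.75, 8.52 and 9.01 in cKO cauda, against 6.83, 6.13 and 7.58 in cKO corpus (difference 1.92, SE 0.32, adjusted p = 0.00716). The difference of Slc26a3 was 2.28 without corpus cKO replicate 3 (adjusted p = 0.00118) and 1.19 with it as the only corpus cKO array (adjusted p = 0.105). Slc9a3, the apical sodium/proton exchanger NHE3, had 9.03, 9.15 and 9.39 in cKO cauda, against 5.43, 5.09 and 8.15 in cKO corpus (difference 2.97, SE 0.61, adjusted p = 0.0241). Corpus replicate 3 was far above the other 2, and the call was lost without any 1 of the cauda cKO arrays or corpus cKO replicate 1 or 2 (differences 2.40 to 3.05, adjusted p 0.0694 to 0.102), while the difference was 3.93 without corpus cKO replicate 3 (adjusted p = 5.48e-05) and 1.04 with it as the only corpus cKO array (adjusted p = 0.153). On the corpus side, Car4, a membrane-bound carbonic anhydrase, had 7.31, 7.44 and 6.00 in cKO cauda, against 9.70, 10.27 and 11.33 in cKO corpus (difference -3.51, SE 0.57, adjusted p = 0.00661). Kcnj16, a potassium channel of acid-base transporting epithelia, had 5.63, 5.02 and 4.65 in cKO cauda, against 8.19, 9.03 and 9.44 in cKO corpus (difference -3.79, SE 0.37, adjusted p = 0.000275). Aqp6, an intracellular aquaporin from outside that list, had 5.96, 5.16 and 4.26 in cKO cauda, against 9.50, 10.20 and 7.52 in cKO corpus (difference -3.95, SE 0.64, adjusted p = 0.00666). For Aqp6 the difference was -4.72 without corpus cKO replicate 3 (adjusted p = 0.000825) and -2.40 with it as the only corpus cKO array (adjusted p = 0.149). Cauda means of Kcnj16 and Aqp6 lay below the median of all values, so their sizes are limited by background. Atp1b1, a subunit of the sodium pump, differed by -1.42. Of 13 clear cell genes, the epithelial cells that pump protons into the lumen, 1 was called, Atp6v1g3, a proton pump subunit (difference 0.87, SE 0.18, adjusted p = 0.0256), and its call was lost without any 1 of the cauda cKO arrays or corpus cKO replicate 1 or 2 (differences 0.77 to 0.93, adjusted p 0.0656 to 0.104). The clear cell regulator Foxi1 had 9.97, 9.91 and 10.03 in cKO cauda, against 9.17, 9.32 and 10.18 in cKO corpus (difference 0.42, SE 0.25, adjusted p = 0.559), with the cauda arrays inside the range of the corpus arrays.

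Of 25 genes of secretion and transport listed for principal cells, the main secretory cells of the duct, 4 were higher and 2 lower. They were measured in whole segments and not in isolated cells. Slc1a1, a glutamate transporter, had 10.98, 11.13 and 10.94 in cKO cauda, against 6.81, 7.36 and 8.45 in cKO corpus (difference 3.48, SE 0.34, adjusted p = 0.000328), with corpus replicate 3 the highest corpus array (difference 3.93 without corpus cKO replicate 3 (adjusted p = 6.22e-05) and 2.57 with it as the only corpus cKO array (adjusted p = 0.00474)). Azgp1, zinc-alpha-2-glycoprotein, had 9.27, 10.20 and 7.31 in cKO cauda, against 4.76, 5.62 and 4.79 in cKO corpus (difference 3.87, SE 0.56, adjusted p = 0.00317), and in control mice the difference was 1.05. Azgp1 was 1 of 64 genes, of 149 named and called, that lost their call when only the 6 cKO arrays were fitted. Aqp6, Slc26a3, Myl9 and Slc6a6 were others. On all 12 arrays no probe-set, Azgp1 included, passed the adjusted threshold for a difference between the cKO and control contrasts. The cauda arrays of cKO mice differed widely among themselves for this gene, but the lowest of them was above all corpus arrays. Npc2, the major cholesterol-binding protein of epididymal fluid, had 11.31, 11.25 and 11.22 in cKO cauda, against 12.41, 12.39 and 12.51 in cKO corpus (difference -1.17, SE 0.12, adjusted p = 0.000336), a small but well-separated difference between bright values. Of 12 measured genes that the study assayed by qRT-PCR or, for defensins, describes by segment, 5 were higher and none lower in the cauda: Azgp1, Defb9, Defb2, Defb11 (1.28) and Defb10 (1.86). The calls of the last 2 were lost without cauda cKO replicate 1 or 2 for Defb11 (differences 1.21 to 1.28, adjusted p 0.0526 to 0.0565), and in 10 of 12 fits for Defb10 (differences 1.50 to 2.05, adjusted p 0.0634 to 0.176), which kept its call only without corpus control replicate 1 or 3. The study also describes Defb1 as higher in the cauda, and here it was not called (difference 0.54, adjusted p = 0.236). It describes Defb13, Defb15, Defb19 and Defb35 as higher in the corpus. Their differences were -1.46, -1.63, -0.47 and -1.76, without a call. Once corpus cKO replicate 3 was left out, Defb13 was called at -1.83 (adjusted p = 0.0117). Defb15 then had -2.62 (adjusted p = 0.0275) and Defb35 -2.82 (adjusted p = 0.0339). Defb19 was not called then (-0.56). Of the other transcripts that the study assayed by qRT-PCR, Oxct2b (difference -0.66, adjusted p = 0.416) and Pdcl2 (difference -0.22, adjusted p = 0.825) were not called on all 12 arrays. Pate4, assayed by the study as well, was not among the measured genes.

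The largest decreases were in genes with varied roles. BC048679, a gene with no role given here, had 9.06, 8.53 and 5.65 in cKO cauda, against 11.79, 12.22 and 11.70 in cKO corpus (difference -4.16, SE 0.84, adjusted p = 0.0229). St8sia5, which adds sialic acid to glycolipids, had 6.93, 6.48 and 5.60 in cKO cauda, against 9.91, 10.23 and 9.81 in cKO corpus (difference -3.65, SE 0.30, adjusted p = 0.000101), and a dimmer probe-set of it gave -0.56 (adjusted p = 0.111). Agt, angiotensinogen, the precursor of angiotensin peptides, had 7.11, 6.58 and 5.97 in cKO cauda, against 9.87, 10.25 and 8.97 in cKO corpus (difference -3.15, SE 0.33, adjusted p = 0.000443). Prokr1, a prokineticin receptor, differed by -3.01, Faim2, an inhibitor of Fas-mediated cell death, by -3.18, and Nrgn, a calmodulin-binding protein, by -2.77. C4bp, a complement inhibitor, had 9.19, 8.98 and 6.84 in cKO cauda, against 11.61, 11.48 and 10.66 in cKO corpus (difference -2.91, SE 0.56, adjusted p = 0.0172), and Lipi, a phospholipase, had 5.16, 5.72 and 2.56 in cKO cauda, against 7.17, 7.53 and 7.88 in cKO corpus (difference -3.04, SE 0.69, adjusted p = 0.0407). Cauda replicate 3 was far below the other 2 cauda arrays for BC048679, C4bp and Lipi. The cauda mean of Lipi lay below the median of all values, so the size of its difference is limited by background. The call of BC048679 was lost without cauda cKO replicate 3 or corpus cKO replicate 1 or 2 (differences -4.21 to -3.11, adjusted p 0.0535 to 0.0854), that of C4bp without corpus cKO replicate 1 or 2 (differences -2.80 to -2.73, adjusted p 0.069 to 0.0715), and that of Lipi in 10 of 12 fits (differences -3.38 to -2.09, adjusted p 0.0506 to 0.114), all but those without cauda cKO replicate 2 and cauda control replicate 3. Of the 15 largest decreases 9 held in all 12 fits. The 5 decreases with the smallest p were Brinp3 (difference -1.83, SE 0.14, adjusted p = 6.43e-05), Qsox2, which forms disulfide bonds (difference -2.27, SE 0.19, adjusted p = 9.8e-05), St8sia5, Sh3gl3, an endophilin of endocytosis (-2.19), and Pgap6, a phospholipase that acts on lipid-anchored proteins (-1.72).

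Genes typical of the initial segment and caput, the upstream segments, had a median difference of -0.95 over 33 members, 2 higher (Lcn12 and Wfdc8) and 3 lower at the threshold, the last count being 5 once corpus cKO replicate 3 was left out and 1 once replicate 2 was. The list averaged 9.13, 9.15 and 7.41 on cKO cauda arrays and 9.32, 9.93 and 9.07 on cKO corpus arrays. Cauda replicate 3 stood below all others, and the part of this array in the decreases named above was not tested. Rnase9, a secreted member of the ribonuclease A family, had 10.70, 10.76 and 10.02 in cKO cauda, against 12.68, 12.41 and 11.93 in cKO corpus (difference -1.85, SE 0.26, adjusted p = 0.0027), with corpus arrays well above cauda arrays in every replicate.

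Interferon-stimulated genes, the antiviral programme that type I interferon switches on, had less signal in the cauda of cKO mice than in their corpus. Of 47 measured, 8 were lower and none higher, with a median of -0.87, and 45 of the 47 differences were below 0. In control mice none was called in either direction and the median was 0.23. On all 12 arrays no probe-set passed the adjusted test of a difference between the cKO and control contrasts. The pattern is therefore not shown to be particular to cKO mice. Irf9, a DNA-binding factor of the interferon response, had 8.79, 8.49 and 8.79 in cKO cauda, against 9.72, 9.78 and 10.15 in cKO corpus (difference -1.19, SE 0.19, adjusted p = 0.00598). Stat2, its partner, had 8.22, 7.91 and 7.96 in cKO cauda, against 9.35, 9.56 and 8.76 in cKO corpus (difference -1.19, SE 0.22, adjusted p = 0.014), and Irf7, which amplifies the response, had 8.64, 8.32 and 8.30 in cKO cauda, against 10.02, 10.86 and 9.11 in cKO corpus (difference -1.58, SE 0.34, adjusted p = 0.0293). Ifit1, an antiviral protein that binds foreign RNA, had 7.21, 6.74 and 6.36 in cKO cauda, against 8.93, 9.34 and 7.47 in cKO corpus (difference -1.81, SE 0.41, adjusted p = 0.0384). For Stat2, Irf7 and Ifit1 corpus replicate 3 lay between the other corpus arrays and the cauda. Irf9 was as high on corpus replicate 3 as on the others, and its call was the 1 of 8 that held in all 12 fits. The call of Stat2 was lost without cauda cKO replicate 2 or 3 or corpus cKO replicate 1 or 2 (differences -1.16 to -1.02, adjusted p 0.0586 to 0.0696), that of Irf7 without any 1 of the cauda cKO arrays or corpus cKO replicate 1 or 2 (differences -1.69 to -1.15, adjusted p 0.0531 to 0.119), and that of Ifit1 in every fit except the 1 without corpus cKO replicate 3 (differences -2.03 to -1.43, adjusted p 0.0525 to 0.163). The difference of Stat2 was -1.42 without corpus cKO replicate 3 (adjusted p = 0.00297) and -0.72 with it as the only corpus cKO array (adjusted p = 0.284). That of Irf7 was -2.02 without corpus cKO replicate 3 (adjusted p = 0.00127) and -0.69 with it as the only corpus cKO array (adjusted p = 0.226). That of Ifit1 was -2.37 without corpus cKO replicate 3 (adjusted p = 0.00113) and -0.71 with it as the only corpus cKO array (adjusted p = 0.483).

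The count depended on the corpus arrays. Without corpus cKO replicate 3, 31 of the 47 interferon-stimulated genes were lower (median -1.20), and with that array as the only corpus cKO array 1 was (median -0.34). Without cauda cKO replicate 1, 2 or 3 the count was 3, 1 and 3, without corpus cKO replicate 1 or 2 it was 2 and 1, and it was 5 without cauda control replicate 1 or 2 or corpus control replicate 1 or 3. The list averaged 6.92, 6.59 and 6.68 on cKO cauda arrays, and 7.95, 7.99 and 6.997 on cKO corpus arrays, against 6.47 to 6.82 on control cauda and 6.37 to 6.65 on control corpus arrays. Corpus replicates 1 and 2 of cKO mice were thus the 2 highest of all 12 arrays. Markers of immune cells were high on corpus replicate 1 in particular. Of 21 macrophage and dendritic cell markers none was called (median -0.19), and their mean level was 8.27, 8.05 and 8.25 on cKO cauda arrays and 9.18, 8.33 and 7.95 on cKO corpus arrays. Of 21 lymphocyte markers none was called (median -0.23), with mean levels of 5.53, 5.31 and 5.48 on cKO cauda arrays and 6.02, 5.61 and 5.36 on cKO corpus arrays. Their part in the interferon result was not tested.

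**Figure D3:**
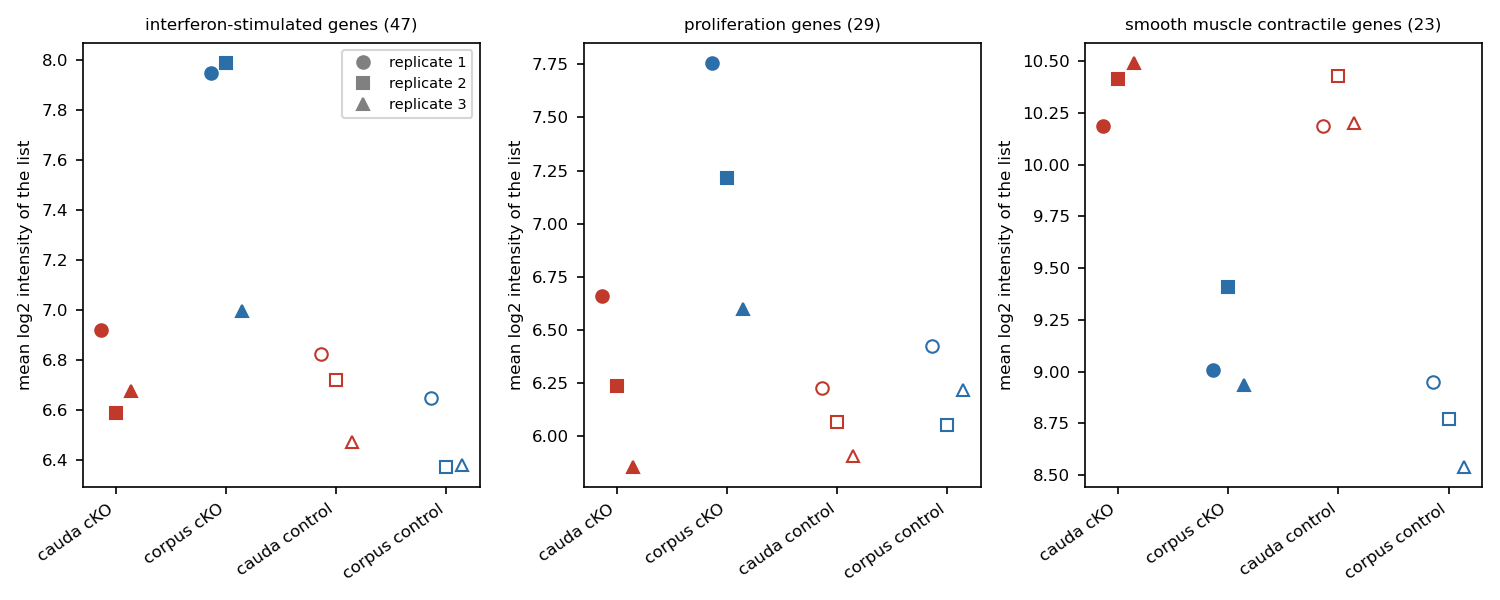
Mean log2 intensity of 3 gene lists (y axis) on each of the 12 arrays by group (x axis, filled for cKO and open for control, red for cauda and blue for corpus). For interferon-stimulated genes corpus cKO replicates 1 and 2 (7.95 and 7.99) lie above the other 10 arrays, whereas for smooth muscle genes all cauda arrays lie above all corpus arrays in both genotypes.

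The promoters of Stat2 and Ifit1 are shown because they were the 2 called interferon genes whose windows held the interferon-stimulated response element (ISRE), searched on both strands as GAAA, any 2 bases and GAAA again, and marked in capitals as it reads on the plus strand. A match to these letters can also be a site of other interferon regulatory factors. Each window (RefSeq, GRCm38.p6) covers 250 bases before and 50 after the annotated start. Stat2 lies at chr10:128270248-128270547, plus strand, with its match starting 222 bases before the start, and Ifit1 at chr19:34640639-34640938, plus strand, with matches starting 104 and 85 bases before it.
Stat2: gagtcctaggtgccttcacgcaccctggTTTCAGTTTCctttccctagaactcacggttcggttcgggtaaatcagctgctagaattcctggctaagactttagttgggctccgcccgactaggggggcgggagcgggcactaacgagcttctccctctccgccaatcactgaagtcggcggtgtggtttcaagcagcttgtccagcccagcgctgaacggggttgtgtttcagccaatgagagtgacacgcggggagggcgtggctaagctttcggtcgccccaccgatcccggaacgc
Ifit1: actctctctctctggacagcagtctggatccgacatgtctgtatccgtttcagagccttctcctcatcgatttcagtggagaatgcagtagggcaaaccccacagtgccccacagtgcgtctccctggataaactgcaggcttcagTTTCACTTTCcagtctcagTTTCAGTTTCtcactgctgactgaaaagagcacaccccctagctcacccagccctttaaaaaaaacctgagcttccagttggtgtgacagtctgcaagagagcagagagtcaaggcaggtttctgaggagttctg
Of 5 called genes found among the listed promoters, 2 held the motif. Of 36 list members measured and present there 19 did, 52.8%, against 3.99% of all 27025 genes. These shares describe letters in a fixed window and no binding was measured.

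Proliferation genes also had lower values in the cauda, without passing the test for most. All 29 differences were below 0 (median -1.02, lowest -1.50, highest -0.28), but only Mcm5, a subunit of the replication helicase, passed the threshold, at 6.68, 6.40 and 6.16 in cKO cauda, against 7.90, 7.45 and 7.10 in cKO corpus (difference -1.08, SE 0.23, adjusted p = 0.0285). Without corpus cKO replicate 3, 17 of the 29 proliferation genes were lower (median -1.27), and with that array alone as corpus none was (median -0.38). The count was 2 without cauda cKO replicate 1 and 0 without cauda cKO replicate 2 or 3 or corpus cKO replicate 1 or 2. The call of Mcm5 was lost without cauda cKO replicate 2 or 3 or corpus cKO replicate 1 or 2 (differences -1.09 to -0.87, adjusted p 0.0822 to 0.131). In controls the median was -0.13 with no call, but on all 12 arrays no probe-set passed the adjusted test of a difference between the cKO and control contrasts. Of 26 genes of epithelial injury and remodelling, 2 were higher and 2 lower (median -0.61, 0.14 in controls), and none was higher without any 1 of the cauda cKO arrays, corpus cKO replicate 1 or 2, or replicate 2 of either control segment, while 1 was in each of the other 5 fits. Tgfb1, a growth factor of repair and fibrosis, had 8.36, 8.21 and 8.43 in cKO cauda, against 9.78, 9.75 and 9.81 in cKO corpus (difference -1.45, SE 0.19, adjusted p = 0.00175), and Anxa3, a calcium-dependent membrane-binding protein, had 8.17, 7.75 and 8.01 in cKO cauda, against 9.88, 10.03 and 9.72 in cKO corpus (difference -1.90, SE 0.22, adjusted p = 0.000956). Both were higher on every corpus array, including replicate 3. Tgfb2 went the other way (difference 0.84, adjusted p = 0.0437). The call of Tgfb2 was lost in 9 of the 12 fits that left out 1 array (differences 0.73 to 0.91, adjusted p 0.0594 to 0.17). Among 45 chemokines and inflammatory mediators 3 were higher and none lower (median -0.26), with 1 higher without cauda cKO replicate 1 or 2 or corpus cKO replicate 1, and 2 lower without corpus cKO replicate 3. Over all genes 2.53% were called higher. S100a8, a calcium-binding protein abundant in neutrophils, had 8.89, 9.06 and 8.76 in cKO cauda, against 5.88, 4.21 and 3.06 in cKO corpus (difference 4.52, SE 0.53, adjusted p = 0.000925), and its control difference was 2.29. The cKO corpus mean of S100a8 lay below the median of all values, so the size of its cKO difference is limited by background.

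Markers of other cell types mostly did not pass the threshold, which 2.53% of all genes passed as higher and 1.72% as lower in the cauda. None of 15 endothelial, 13 basal cell or 10 mesothelial markers was called, with medians of -0.03, -0.02 and 0.04. Of 25 fibroblast and matrix genes 1 was called, Tnc, a matrix protein of repair (difference 0.99, SE 0.23, adjusted p = 0.048), whose call was lost (differences 0.82 to 1.11, adjusted p 0.0521 to 0.191) in all fits but those without corpus control replicate 1 or 3. Of 44 collagens none was (median 0.05). Of 55 transcripts of haploid germ cells and sperm 1 was higher, Acrv1, an acrosomal protein (difference 1.56, SE 0.25, adjusted p = 0.00597), and the median was -0.28 in cKO mice and 0.81 in controls. These medians were not tested against each other. Prm1, a protamine that packs sperm DNA, had 7.84, 6.59 and 7.61 in cKO cauda, against 9.20, 7.89 and 7.15 in cKO corpus, with the segments overlapping. Of 13 adipocyte markers 1 was called, Cidea (difference 0.73, SE 0.17, adjusted p = 0.0416), which lost its call in every fit but the 1 without corpus cKO replicate 2 (differences 0.57 to 0.83, adjusted p 0.0542 to 0.16), and their mean level was 6.48, 6.54 and 7.58 on cKO cauda arrays and 6.49, 7.42 and 6.57 on cKO corpus arrays, so 1 array in each segment carried more of them.

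**Figure D4:**
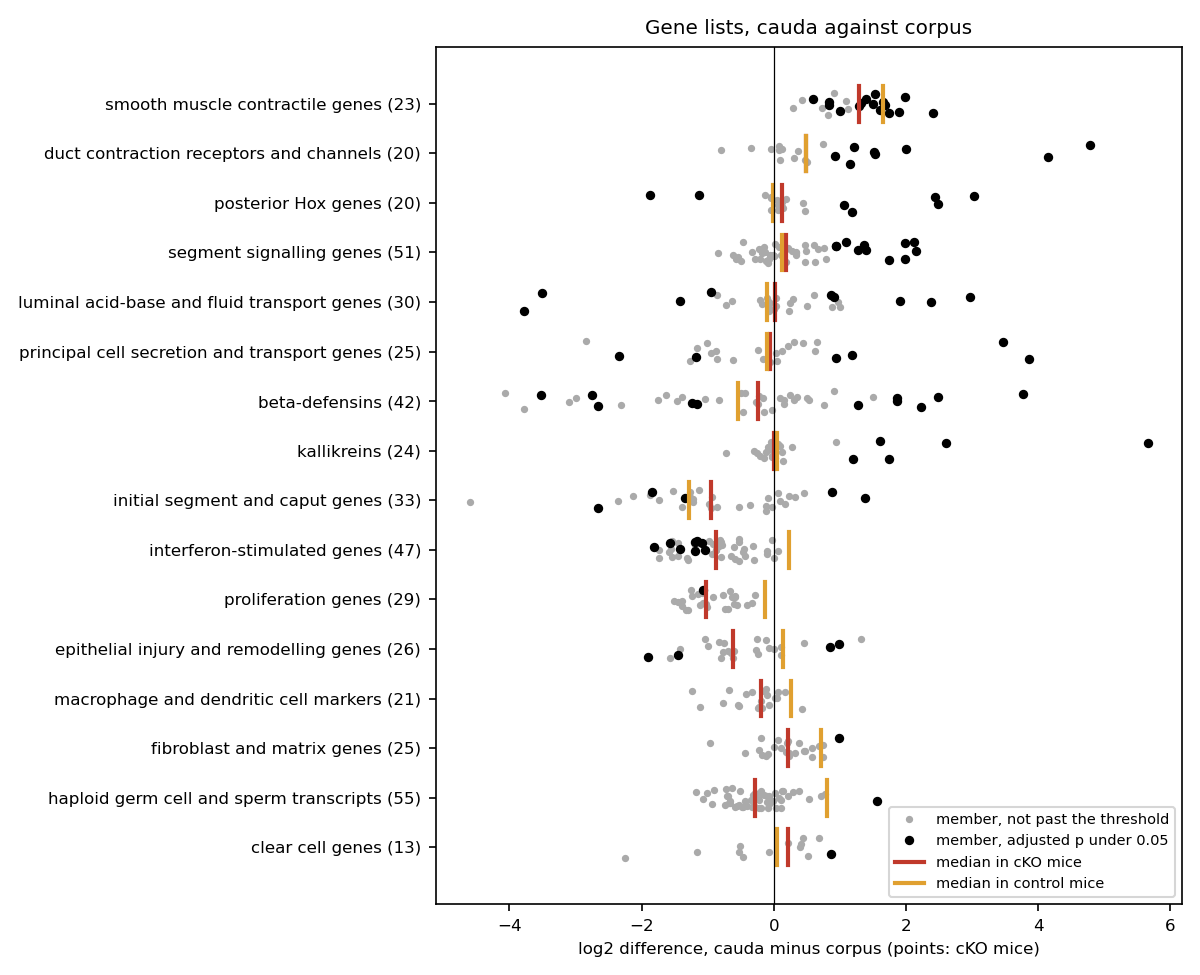
Difference between cauda and corpus (log2, x axis) for the members of 16 gene lists (y axis, number measured in parentheses), with points for single genes in cKO mice, black where the adjusted p was under 0.05, and bars for the list median in cKO (red) and control mice (orange). The interferon list has a median of -0.87 in cKO and 0.23 in control mice, and the smooth muscle list 1.29 and 1.65. The list medians of the genotypes were not tested against each other.

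The same contrast in control mice uses other arrays and was set beside the cKO values. Of the 561 genes higher in the cKO cauda, 556 (99.1%) had a positive difference in controls, against 44.9% of all genes, and of the 382 lower, 370 (96.9%) had a negative one, against 55.1%. Of all genes, 2.48% were called higher and 2.74% lower in control mice, 5.22% in all. The 335 genes called higher in both genotypes were 59.7% of the cKO list and 60.9% of the control list, and the 253 called lower in both were 66.2% of the cKO list and 41.7% of the control list. None was called in opposite directions. Among genes called in cKO mice the median difference was 1.11 for those higher and -1.08 for those lower, and the same genes had medians of 0.90 and -0.96 in controls. The genes were chosen on the cKO arrays, so no test was made between these medians.

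**Figure D5:**
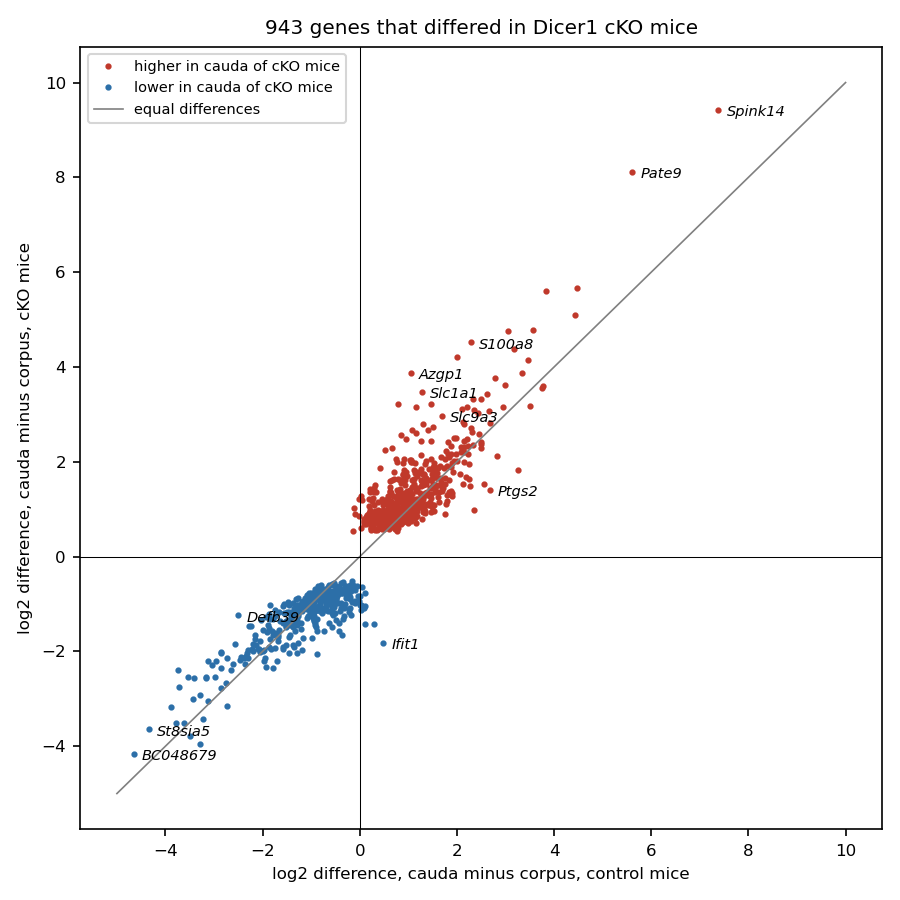
Difference between cauda and corpus in cKO mice (log2, y axis) against that in control mice (log2, x axis) for the 943 genes called in cKO mice, higher in red and lower in blue, with a line where both are equal. Of the higher genes 556 of 561, and of the lower genes 370 of 382, lie on the same side of 0 in controls, and Ifit1 lies at -1.81 in cKO and 0.48 in control mice.

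Whether the segment difference itself depended on genotype was tested by the difference between the cKO and the control contrast. No probe-set of the 41345 passed the adjusted threshold in limma (0 calls), and the methods' pairwise contrasts, which use each probe-set's own variance, also called 0. At an unadjusted p under 0.05 limma passed 2687 (6.5%). Without corpus cKO replicate 3 the adjusted count was 151, and it was 0 without each of the other 11 arrays. Among 46 genes with an unadjusted p under 0.002 (0.207% of genes), the most negative value was that of Thbs1, a matricellular protein of wounds. It had 8.61, 8.32 and 8.78 in cKO cauda, against 10.12, 10.10 and 8.59 in cKO corpus, and 9.26, 9.36 and 9.40 in control cauda, against 7.45, 7.39 and 6.47 in control corpus. The difference between contrasts was -3.27 (SE 0.54, unadjusted p = 7.5e-05, adjusted p = 0.373), and without corpus cKO replicate 3 it was -3.78 (adjusted p = 0.0179). Ccn2 (-2.08) and Ccn1 (-1.74), which are matricellular proteins too, and Clca3a2 (-2.11), a regulator of chloride currents, also had negative values. So did 1700010D01Rik (-2.13) and 1700020G17Rik (-1.75), genes with no role given here. The most positive was Slc1a1 at 2.19 (unadjusted p = 0.00085, adjusted p = 0.58), and its control values were 11.03, 10.81 and 11.04 in control cauda, against 9.29, 10.15 and 9.60 in control corpus, beside the cKO values given above. Gdf11, a growth factor of the TGF-beta family, had 1.82 and Rhbdl1, a rhomboid protease, 1.60. Lrmda had 1.85, Olfr1338 1.76 and Nlrp4f 1.32. None of these passed the adjusted threshold on all 12 arrays.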

How the data were processed

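RNA of 12 mouse epididymal samples, 3 for each of cauda and corpus in Dicer1 cKO and control mice, was hybridized to Affymetrix Mouse Gene 2.0 ST arrays. This platform is given by the study's methods and the probe-set identifiers, whereas the labelling text of the samples describes a microRNA array. The authors deposited log2 intensities after RMA (background correction, quantile normalization and probe summarization), named in the submitters' processing notes without a version, with the study's methods naming Partek software. These values were used as deposited, and 0 columns were left out. The number of arrays limits the precision.

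All 41345 probe-sets were fitted with limma 3.58.1 (R 4.3.3) to 4 group means over 12 arrays, with 8 residual degrees of freedom (prior degrees of freedom 3.18, prior variance 0.0515) and Benjamini-Hochberg adjustment over all probe-sets. A difference was called at an adjusted p under 0.05. Differences are cauda minus corpus. The fit was tested on simulated data. Gene names are those of the array annotation, and 21994 of the 22180 genes had their identifier in RefSeq's table. A gene whose lower group mean lies under the median of all values has a difference whose size is limited by background. This applied to 97 of the 561 higher and 44 of the 382 lower genes.

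Genes were chosen for naming by rule: the 15 largest increases and decreases without overlap, the 5 smallest p in each direction, up to 4 members of each list by p and its defining members, 6 genotype differences in each direction at an unadjusted p under 0.002, the genes the study assayed by qRT-PCR with the defensins it describes by segment, and Dicer1. Some genes chosen this way are not described in the text. Others, among them Chrm3, Slc9a3, Ifit1 and Tnc, were chosen after their values were seen. The members and the gene lists were chosen with earlier results of these data known. Promoter sequences (RefSeq, GRCm38.p6) were searched for motifs in Python 3.11.15, and plots were drawn with matplotlib 3.10.9. Replicate numbers were tried as a fixed block and, with statmod 1.5.0, as a random block, beside other variance estimates, filters, normalizations and array weights, and each array was left out in turn.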

Additional observations from a re-analysis of the deposited data

How the results depend on the processing

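Of the 149 genes chosen for naming and called, none changed direction under any alternative. For leaving out arrays this was fixed in advance, since cauda and corpus arrays of cKO mice did not overlap for any called gene. Other variance estimates, blocks and filters of probe-sets leave the difference itself unchanged. The direction is therefore no support, and only the calls and their counts could respond to these alternatives. The limits were the number of arrays and the spread among the cKO corpus arrays. The main counts were 676 probe-sets and 561 genes higher and 435 probe-sets and 382 genes lower, 1111 probe-sets in all. With only the 6 cKO arrays they were 343 and 270 higher and 154 and 134 lower (497 in all), and 64 of the 149 genes lost their call. With the brighter 50% of probe-sets by mean, 666 probe-sets and 592 genes were lower, and with probe-sets of 1 symbol 655 and 637. At the threshold of the study, which asks for more than 2-fold and an unadjusted p below 0.002, 427 probe-sets and 337 genes were higher and 282 and 247 lower (709 in all), and 108 probe-sets passed for the genotype difference. With corpus cKO replicate 3 as the only corpus cKO array, an alternative chosen after seeing the data, 296 probe-sets and 243 genes were higher (630 probe-sets in all), and 70 of the 149 lost their call. The difference of Pdcl2, not called at -0.22, was then 0.23, and leaving out 1 array gave -0.45 (without corpus cKO replicate 3) to 0.014 (without corpus cKO replicate 1). Defb15 and Defb35, not called at -1.63 and -1.76, were then at 0.33 and 0.38. The cause was not tested.

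Leaving out 1 array at a time gave 400 to 962 probe-sets and 331 to 774 genes higher, 208 to 703 probe-sets and 186 to 598 genes lower, 614 to 1665 probe-sets in all, and 0 to 151 for the genotype difference. With the replicate number as a block, 435 probe-sets and 357 genes were higher and 322 and 277 lower, and 39 of the 149 genes lost their call. The numbers were not shown to pair the samples: deviations of cauda and corpus arrays with the same number correlated at 0.10, 0.11 and 0.07 in cKO and 0.05, 0.08 and -0.04 in control mice, although each cKO array correlated best with its own number. A random block (consensus correlation 0.05) cost none of the 149 calls. The genotype difference could not be computed from the 6 cKO arrays alone.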

Other observations

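Transcripts of microRNA genes were measured by probe-sets for 483 genes, which detect the hairpin or host transcript and not the mature microRNA. By limma none was called higher in the cKO cauda and 2 were called lower, and for 376 of the 483 both group means lay below the median of all values. Mir17, of a cluster linked to cell proliferation, had 3.35, 3.39 and 3.27 in cKO cauda, against 3.93, 4.08 and 3.89 in cKO corpus (difference -0.63, SE 0.12, adjusted p = 0.0144), and its call was lost without any 1 of the cauda cKO arrays or corpus cKO replicate 2 (differences -0.65 to -0.57, adjusted p 0.0505 to 0.07). Mir3088 had 5.84, 5.63 and 5.52 in cKO cauda, against 6.48, 6.60 and 6.94 in cKO corpus (difference -1.01, SE 0.19, adjusted p = 0.0157), and its call was lost without cauda cKO replicate 2 or 3 (differences -0.99 to -0.93, adjusted p 0.0688 to 0.0777). All cauda arrays lay below all corpus arrays for both genes. Both group means of Mir17 lay below the median of all values, so neither level is shown to be above background. Of 15 genes of microRNA processing 1 was lower, Ago4, an Argonaute protein (difference -0.78, SE 0.18, adjusted p = 0.0496), with a list median of 0.00. Its call held only without cauda control replicate 2 or 3 and was lost in the other 10 fits that left out 1 array (differences -0.90 to -0.66, adjusted p 0.0557 to 0.148). Of 23 claudins, which seal tight junctions between epithelial cells, 2 were lower, Cldn7 (difference -0.81, SE 0.18, adjusted p = 0.0373) and Cldn11 (difference -1.18, SE 0.27, adjusted p = 0.0427). The call of Cldn7 held only without corpus cKO replicate 3 or cauda control replicate 2 or 3 and was lost in the other fits (differences -0.84 to -0.61, adjusted p 0.0543 to 0.133), and that of Cldn11 only without corpus cKO replicate 2 or cauda control replicate 3 and was lost in the other fits (differences -1.20 to -0.87, adjusted p 0.0544 to 0.145). Of 84 respiratory chain subunits 1 was higher, Ndufa1 (difference 0.75, SE 0.14, adjusted p = 0.0161), with a list median of 0.14, and its call was lost without cauda cKO replicate 2 or 3 or corpus cKO replicate 1 (differences 0.67 to 0.77, adjusted p 0.0561 to 0.0808). Over all genes 2.53% were called higher and 1.72% lower, so these few calls are not read as results about a family. Of 20 sialyltransferases, St6galnac3 was higher (difference 1.77, SE 0.24, adjusted p = 0.00252) and St8sia5 lower.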
